A study of Homo sapiens with 5 samples.

Results

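The windows described here cover 7 imprinted genes of chromosomes 19 and 20, PEG3, ZIM2, NNAT, BLCAP, L3MBTL1, GNAS-AS1 and GNAS. Of the 288391 windows of 1000 bases in the deposited table, 73 were assigned by that table to a member or overlapped a member extended by 1500 bases at each end. All 7 genes were represented, with 5 windows for PEG3, 14 for ZIM2, 5 for NNAT, 13 for BLCAP, 18 for L3MBTL1, 11 for GNAS-AS1 and 25 for GNAS. Because ZIM2 spans PEG3, BLCAP spans NNAT and GNAS-AS1 overlaps GNAS, 18 windows belong to more than 1 member. The windows therefore form 4 loci, which are described in order as PEG3/ZIM2, NNAT/BLCAP, L3MBTL1 and GNAS.

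DNA methylation was measured by RRBS, which cuts DNA at CCGG, converts unmethylated cytosines with bisulfite and so enriches CpG-rich fragments. Human iPSCs of the established line HPS0063 (201B7), wild type by their labels, were kept for 48 h in 0.1% DMSO as the vehicle control or with 1 nM etoposide (a topoisomerase II inhibitor), 1 µM propyl gallate (an antioxidant food additive), 1 µM theophylline (a xanthine of tea) or 10 nM 5-aza-dc (a cytidine analogue that traps DNA methyltransferases). The paper's assay used this line carrying a construct for a fluorescent methyl-CpG-binding domain. For RRBS its methods name only treated cells, so whether the profiled cells carried the construct is not known here. Each condition has 1 library, so replicate spread is unknown for every difference, and the intervals below cover counting error only. No RNA was measured here, so neither the expression of these genes nor that of pluripotency markers was checked. The 73 windows hold between 61470 and 73725 CpG calls per library, with a median of 431 to 564 calls per window, and 58 of them have at least 100 calls in all 5 libraries. A read covering several CpGs gives several calls, and PCR duplicates repeat them, so calls are not independent molecules.

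An imprinted gene is expressed from the allele of one parent. The choice is carried by differentially methylated regions (DMRs), CpG-rich stretches that are methylated on one parental allele and not on the other, so that an intact DMR reads at an intermediate level in bulk DNA. At PEG3, NNAT and L3MBTL1 the maternal allele carries the methylation and the paternal allele is expressed. GNAS has several promoters, of which NESP55 is methylated on the paternal allele, whereas XLαs, the start of the antisense transcript GNAS-AS1 and exon A/B are methylated on the maternal allele. The promoter of Gsα, the G protein subunit that stimulates adenylyl cyclase, lies downstream of exon A/B and is unmethylated on both alleles. These statements are background. In bulk calls, 1 methylated allele in each cell cannot be told apart from a mixture of methylated and unmethylated cells.

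RefSeq promoter sequences (GRCh38.p14, 250 bases before to 50 after the start site) were at hand for 3 of the 7 genes, in 11 entries. The 7 printed here are start sites whose windows ran from unmethylated to intermediate, and every CG dinucleotide is in capitals. L3MBTL1 encodes a chromatin-compacting Polycomb-group protein. Its deposited position begins at 43489442, in a window outside islands that read 86.5% in the vehicle control. Its RefSeq start site at 43507697 and its internal start site at 43514441 are shown as a pair from 1 gene, unmethylated and intermediate.
L3MBTL1 upstream, chr20:43507447-43507746, + strand: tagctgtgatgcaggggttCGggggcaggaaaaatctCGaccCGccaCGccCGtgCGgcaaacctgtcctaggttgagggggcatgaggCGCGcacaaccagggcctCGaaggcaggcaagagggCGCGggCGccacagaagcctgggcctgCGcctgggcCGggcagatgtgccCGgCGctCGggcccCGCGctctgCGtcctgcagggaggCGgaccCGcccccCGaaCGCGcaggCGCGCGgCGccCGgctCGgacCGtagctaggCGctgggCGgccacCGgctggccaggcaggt
L3MBTL1 internal, chr20:43514191-43514490, + strand: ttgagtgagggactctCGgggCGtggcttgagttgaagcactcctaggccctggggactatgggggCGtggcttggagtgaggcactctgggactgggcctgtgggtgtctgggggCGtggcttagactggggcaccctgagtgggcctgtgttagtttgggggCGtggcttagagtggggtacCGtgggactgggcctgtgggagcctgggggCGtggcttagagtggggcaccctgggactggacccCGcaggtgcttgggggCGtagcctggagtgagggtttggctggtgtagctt
The upstream sequence has 35 CG and 4 CCGG, and the internal one has 9 CG and no CCGG, against a median of 14 CG over 35116 promoters of the same length. The upstream start site fell in a window with a level of 0.803% in the vehicle control, and the internal one in a window with 56.8%.

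Next are 4 start sites of GNAS. The first is the most upstream of the gene, the second is in the XLαs island, and the last pair is in the island of exon A/B, where the libraries differed most.
GNAS, chr20:58839498-58839797, + strand: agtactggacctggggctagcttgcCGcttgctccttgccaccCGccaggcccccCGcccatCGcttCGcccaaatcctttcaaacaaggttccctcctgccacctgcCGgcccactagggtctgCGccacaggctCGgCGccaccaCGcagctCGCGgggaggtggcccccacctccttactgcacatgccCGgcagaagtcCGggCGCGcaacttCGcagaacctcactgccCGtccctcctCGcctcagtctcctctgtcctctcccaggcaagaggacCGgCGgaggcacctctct
GNAS, chr20:58852466-58852765, + strand: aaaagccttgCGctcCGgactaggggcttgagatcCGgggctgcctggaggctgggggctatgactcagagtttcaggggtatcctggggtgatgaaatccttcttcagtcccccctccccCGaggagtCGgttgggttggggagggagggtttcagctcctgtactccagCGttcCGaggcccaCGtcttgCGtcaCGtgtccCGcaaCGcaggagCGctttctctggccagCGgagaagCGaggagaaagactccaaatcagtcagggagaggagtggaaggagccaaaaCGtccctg
GNAS, chr20:58888163-58888462, + strand: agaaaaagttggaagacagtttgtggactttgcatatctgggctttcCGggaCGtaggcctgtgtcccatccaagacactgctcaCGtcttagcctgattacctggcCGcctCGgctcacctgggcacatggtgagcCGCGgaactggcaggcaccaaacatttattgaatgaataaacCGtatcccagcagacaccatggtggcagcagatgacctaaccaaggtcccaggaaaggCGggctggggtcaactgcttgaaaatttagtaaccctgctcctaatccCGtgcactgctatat
GNAS, chr20:58888930-58889229, + strand: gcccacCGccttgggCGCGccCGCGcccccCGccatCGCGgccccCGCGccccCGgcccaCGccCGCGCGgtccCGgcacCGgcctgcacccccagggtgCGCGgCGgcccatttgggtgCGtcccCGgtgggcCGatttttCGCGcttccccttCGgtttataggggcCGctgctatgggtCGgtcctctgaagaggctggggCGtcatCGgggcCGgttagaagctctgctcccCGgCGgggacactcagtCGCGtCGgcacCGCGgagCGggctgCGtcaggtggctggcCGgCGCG
They hold 21, 16, 10 and 43 CG, and the windows at their start sites read 54.8%, 6.95%, 62.3% and 29.5% in the vehicle control. BLCAP, a gene first described as reduced in bladder cancer, is shown because its promoter was nearly free of methylation beside the partly methylated island of NNAT.
BLCAP, chr20:37527683-37527982, - strand: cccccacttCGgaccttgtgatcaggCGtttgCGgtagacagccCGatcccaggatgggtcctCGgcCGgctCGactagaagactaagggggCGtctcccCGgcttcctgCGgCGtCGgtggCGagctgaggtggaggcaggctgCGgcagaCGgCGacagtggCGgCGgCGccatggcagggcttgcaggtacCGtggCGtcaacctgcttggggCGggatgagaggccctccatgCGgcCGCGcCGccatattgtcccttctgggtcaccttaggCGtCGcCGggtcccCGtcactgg
It holds 30 CG and 3 CCGG, and its window read 0.557% in the vehicle control. TGCCGC, the word bound by the imprint-protecting zinc finger protein ZFP57 when methylated, occurs on either strand in the BLCAP sequence, in that of GNAS at 58839498 and in the upstream L3MBTL1 sequence, and in 16.7% of all promoters. CCGG occurs in 63.1% of all promoters. The calls of a window are not placed to single bases in the deposited table, so they need not come from the printed stretch.

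The CpG island windows of these genes were more often partly methylated than CpG islands in general. Of the 73 windows, 26 lie in CpG islands by the deposited annotation, 7 in shores, 3 in shelves and 37 elsewhere. In the vehicle control, 11 of the 26 island windows (42.3%) had a methylation level from 30% to 70%, against 2966 of 49761 (5.96%) among all island windows of the table. Another 5 of the 26 lay from 10% to 30%, 6 under 10%, 2 from 70% to 90% and 2 at 90% or more. Over all island windows, 47.6% were under 10% and 27.8% at 90% or more. Outside islands, 5 of 47 windows (10.6%) were partly methylated, against 3.99% over the table. Windows of 1 island are neighbours and not independent, so these counts are given without a test.

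The surroundings and other imprinted loci were set beside these counts. Within 100000 bases of the 7 genes, 1 of 14 further island windows was partly methylated. Among 12 neighbouring genes with windows, such as USP29 and ZIM3 near PEG3 and CTSZ near GNAS, none of the 17 island windows was. Partly methylated island windows numbered 7 of 16 at imprinted genes of chromosomes 6 and 7, 3 of 8 at 15q11, 6 of 23 at 14q32 and 8 of 32 at 11p15. The share at the 7 genes was thus near that of the genes of chromosomes 6 and 7 (43.8%) and above that of 11p15 (25%).

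A window was called when its level differed from the vehicle control by at least 10 percentage points and Fisher's exact test, adjusted by Benjamini-Hochberg over all 288391 windows, gave an adjusted p under 0.01. This test compares 2 libraries, not 2 conditions. The member windows called in at least 1 comparison numbered 16, a count without a matching share over all windows. In each of the 4 comparisons 6 of the 73 windows (8.22%) were called. After etoposide 5 were higher and 1 lower, against 2.32% of all windows called (1.37% higher and 0.960% lower). Propyl gallate had 2 higher and 4 lower, against 2.23% (1.35% and 0.885%). Theophylline had 3 higher and 3 lower, against 2.29% (1.60% and 0.683%), and 5-aza-dc likewise 3 and 3, against 3.65% (0.894% and 2.76%). At these genes 3 calls in each direction are few to set beside the lower calls that prevailed over the table after 5-aza-dc. At any size of difference, 40 of the 73 windows were lower after 5-aza-dc and 32 higher. Over all 288391 windows, 168357 were lower and 117858 higher. Of the 26 island windows, 18 were lower and 8 higher. Lower windows also prevailed over all 49761 island windows, with 30636 lower and 18721 higher. At least 25 percentage points were reached by 1 window each after etoposide (0.191% of all windows), propyl gallate (0.178%) and theophylline (0.174%), and by 0 after 5-aza-dc (0.310%). An unadjusted p under 0.05 in Fisher's exact test was reached by 28 of the 73 windows for etoposide and 25 of 73 with propyl gallate. It was reached by 24 of 73 for theophylline and 27 of 73 with 5-aza-dc. The shares of all windows were 30.4%, 30.5%, 31.1% and 33.8% in the same order. All comparisons use the same vehicle control library, so they are not independent of each other.

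PEG3 (ENSG00000198300, chr19:56810077-56840728 on the - strand, hg38) encodes a zinc finger protein, and ZIM2 (ENSG00000269699, chr19:56774547-56840731, - strand), another zinc finger gene, shares its promoter and first exons. The CpG island at their common start was almost fully methylated in every library. In the window chr19:56840001-56841000, which holds the start of both genes and which the deposited table assigns to the promoter of the divergent transcript MIMT1, the vehicle control had 2264 methylated calls of 2383 (95%, with a 95% Wilson interval from 94.1% to 95.8%). The level there was 96.2% with etoposide, 95.9% with propyl gallate, 95.3% with theophylline and 95.7% with 5-aza-dc. The range over the 5 libraries was 1.18 percentage points, and the interval of each difference from the vehicle control includes 0. Of the 26 island windows of the 7 genes, 11 lay from 30% to 70% in the vehicle control.

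The second PEG3 island window, chr19:56838001-56839000 in an intron, read 77.5% in the vehicle control, 72.4% with etoposide, 74.9% with propyl gallate, 79.2% with theophylline and 83.6% with 5-aza-dc. It had 89 to 204 calls, and the intervals of the libraries overlap. With a range of 11.2 percentage points it was the most variable window of PEG3. The most variable window of ZIM2, chr19:56772001-56773000, has 24 to 33 calls per library and ran from 74.3% after theophylline to 96.4% after etoposide, and no difference there was called.

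Outside islands, the 12 windows of PEG3 and ZIM2 averaged 83.6% in the vehicle control, and none was under 67.7%. Of these windows, 3 were called for at least 1 chemical by the rule given above, again without a matching share over all windows. The window chr19:56801001-56802000 was 13.8 percentage points higher after theophylline, at 81.5% against 67.7% (Fisher's exact test, adjusted p 5.5e-06). The window chr19:56817001-56818000 differed by -10.4 after theophylline, at 74.7% against 85.1% (Fisher's exact test, adjusted p 0.000107), and 5-aza-dc differed by -9.88, just under the limit. The window chr19:56792001-56793000 differed by -11.2 after 5-aza-dc, at 66.8% against 78.0% (Fisher's exact test, adjusted p 1.15e-06). No window of this locus was called after etoposide or propyl gallate.

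NNAT (ENSG00000053438, chr20:37521206-37523690, + strand) encodes neuronatin, a small membrane protein of the developing brain, and lies in an intron of BLCAP (ENSG00000166619, chr20:37492472-37527931, - strand). Its promoter island read between 20.6% and 67.3% over its windows and libraries, while the BLCAP promoter island a few kb away was nearly free of methylation. In the first NNAT island window, chr20:37520001-37521000, the level was 52.6% in the vehicle control (95% Wilson interval 50.2% to 55.1%), 67.3% with etoposide (64.4% to 70%), 42.2% with propyl gallate (39.0% to 45.3%), 51.2% with theophylline (48.5% to 53.8%) and 51.8% with 5-aza-dc (49.3% to 54.4%). Etoposide was thus highest and propyl gallate lowest, and the other libraries did not separate. It was 14.6 percentage points higher after etoposide (95% Newcombe interval 10.9 to 18.3, Fisher's exact test, adjusted p 1.56e-11). After propyl gallate it fell by 10.5 percentage points (Fisher's exact test, adjusted p 1.98e-05). The calls there ranged from 914 after propyl gallate to 1624 in the vehicle control, and the part of depth in the difference was not tested.

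The next window, chr20:37521001-37522000, holds the NNAT start site and had another order of the libraries. It read 25.5% in the vehicle control, 34.7% with etoposide, 38.3% with propyl gallate, 20.6% with theophylline and 41.1% with 5-aza-dc, with 1475 to 2444 calls. Here 5-aza-dc was 15.6 percentage points above the vehicle control (12.8 to 18.3, Fisher's exact test, adjusted p 4.75e-25). Propyl gallate was 12.8 above it (9.88 to 15.7, Fisher's exact test, adjusted p 4.49e-15), opposite in sign to its difference in the adjoining window. The shore window chr20:37522001-37523000 read 31.2% in the vehicle control and rose by 10.1 percentage points after etoposide and by 14 after theophylline. Upstream of the island, the windows from 37518001 and 37519001 read 92.6% and 92.8% in the vehicle control, far above the 52.6% of the first island window next to them.

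In the BLCAP promoter window chr20:37527001-37528000, the vehicle control had 13 methylated calls of 2332 (0.557%, with a 95% Wilson interval from 0.326% to 0.951%), and the other libraries lay between 0.222% after etoposide and 0.878% after 5-aza-dc. The adjoining island window from 37528001 read 3.33% in the vehicle control and 1.66% to 2.79% after the chemicals. No difference in either window was called. Beyond the other end of BLCAP, and assigned to it by the deposited table, the window chr20:37469001-37470000 differed by -14.7 percentage points after 5-aza-dc (74.5% against 89.2%, Fisher's exact test, adjusted p 0.00038). The window chr20:37483001-37484000 was 13.6 higher after theophylline (96.4% against 82.8%, Fisher's exact test, adjusted p 0.000996). Both have no more than 312 calls per library.

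L3MBTL1 (ENSG00000185513, chr20:43489442-43550954, + strand) has 4 island windows with 3 different states. The upstream promoter window chr20:43507001-43508000 was unmethylated, at 0.803% in the vehicle control (18 of 2242 calls, 0.508% to 1.27%) and 0.642% to 1.43% in the other libraries. The internal island, 6 kb downstream, was intermediate. Its first window, chr20:43513001-43514000, read 62.0% in the vehicle control, 70.1% with etoposide, 54.6% with propyl gallate, 64.2% with theophylline and 57.2% with 5-aza-dc. Its second window, chr20:43514001-43515000, which holds the internal start site printed above, read 56.8%, 64.2%, 50.6%, 62.3% and 48.0% in the same order.

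In both windows of the internal L3MBTL1 island, etoposide and theophylline lay above the vehicle control and propyl gallate and 5-aza-dc below it. The mean over them was 59.4% in the vehicle control. It was 7.76 percentage points higher after etoposide (95% counting interval 5.26 to 10.3) and 3.86 higher after theophylline (1.39 to 6.32). The difference was -6.79 after propyl gallate (-9.31 to -4.26) and -6.80 after 5-aza-dc (-9.35 to -4.26). None of these windows reached 10 percentage points, so none was called. The third island, at chr20:43553001-43554000 beyond the end of the gene, read 88.6% to 91.5%. Elsewhere in L3MBTL1, the window chr20:43536001-43537000 was 11.5 percentage points higher after etoposide (97.1% against 85.7%) and the shore window chr20:43552001-43553000 was 10.8 higher after 5-aza-dc (94.0% against 83.1%). Its most variable window, chr20:43535001-43536000, has 32 to 46 calls and spans 18.0 percentage points.

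The locus of GNAS (ENSG00000087460, chr20:58839718-58911192, + strand) and its antisense transcript GNAS-AS1 (ENSG00000235590, chr20:58818918-58850903, - strand) holds 16 of the 26 island windows, in 3 islands. The island at NESP55, the promoter of a neuroendocrine secretory protein, was intermediate over its whole length. In the vehicle control its 4 windows, from 58839001 to 58843000, read 54.8%, 53.8%, 49.5% and 56.4%. After etoposide they read 54.5%, 61.8%, 58.7% and 59.5%, and after propyl gallate 44.1%, 50.9%, 52.3% and 57.3%. After theophylline they read 61.8%, 48.0%, 50.7% and 59.8%, and after 5-aza-dc 52.6%, 51.5%, 46.6% and 50.3%. All 20 values lie between 44.1% and 61.8%. Only the first window after propyl gallate was called, at -10.7 percentage points (-15.4 to -5.99, Fisher's exact test, adjusted p 0.000308).

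The second island, which holds the starts of GNAS-AS1 and of XLαs, an extra-large form of Gsα, changed level from window to window. The window chr20:58850001-58851000, at the start of GNAS-AS1, read 49.9% in the vehicle control. The next ones read 19.8%, 6.95%, 87.4%, 38.7%, 41.5% and 21.9%. This profile recurred in every library, with the window from 58852001 at 5.32% to 13.7% and its neighbour from 58853001 at 82.8% to 88.1%. The largest difference from the vehicle control in this island was -7.71 percentage points, after 5-aza-dc in the GNAS-AS1 start window (42.2%), and no difference was called. In the window from 58852001, which holds the XLαs-island start site printed above, etoposide was 6.74 percentage points higher (4.03 to 9.67, Fisher's exact test, adjusted p 4.97e-05). Theophylline was 4.39 higher there (1.98 to 6.92, Fisher's exact test, adjusted p 0.00438). In the window from 58855001 propyl gallate was 6.55 higher, etoposide was 6.31 higher and theophylline differed by -5.53. In that from 58856001 5-aza-dc was 6.28 higher.

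The third island, at exon A/B, held the window in which the libraries differed most. In chr20:58888001-58889000, the methylated calls numbered 317 of 509 in the vehicle control (62.3%, 58.0% to 66.4%), 373 of 481 with etoposide (77.6%, 73.6% to 81.0%), 129 of 404 with propyl gallate (31.9%, 27.6% to 36.6%), 156 of 497 with theophylline (31.4%, 27.5% to 35.6%) and 227 of 548 with 5-aza-dc (41.4%, 37.4% to 45.6%). The range of 46.2 percentage points was the largest of the 73 windows. This was the only member window called after all 4 chemicals, a count without a matching share over all windows. Against the vehicle control it was 15.3 percentage points higher after etoposide and differed by -30.4 for propyl gallate, -30.9 with theophylline and -20.9 for 5-aza-dc. The adjusted p from Fisher's exact test was between 1.89e-19 and 1.21e-05. Its 404 to 548 calls are fewer than those of the other windows of this island except the last, and the part of depth in the differences was not tested.

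The following window, chr20:58889001-58890000, holds the start site of the densest promoter printed above. The vehicle control was lowest there, at 29.5% (27.8% to 31.3%), with 41.7% for etoposide, 41.1% with propyl gallate, 35.5% for theophylline and 37.8% with 5-aza-dc, from 2279 to 2796 calls. It rose by 12.1 percentage points after etoposide (9.48 to 14.8, Fisher's exact test, adjusted p 1.17e-15) and by 11.5 after propyl gallate (8.97 to 14, Fisher's exact test, adjusted p 1.68e-15). The difference was 5.98 after theophylline and 8.29 after 5-aza-dc, both under 10 percentage points. Propyl gallate therefore differed from the vehicle control in opposite directions in these adjoining windows. The level then declined along the island, to 17.6% in the window from 58890001, 0.557% in that from 58891001 and 0 of 233 calls in that from 58892001, which allows up to 1.29%.

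Partial methylation outside islands was also seen at GNAS and GNAS-AS1. At the far end of GNAS-AS1, the window chr20:58819001-58820000 read 59.6% in the vehicle control, 51.1% with etoposide, 50.6% with propyl gallate, 44.9% with theophylline and 73.0% with 5-aza-dc. The difference was -14.7 percentage points after theophylline and 13.4 after 5-aza-dc, and it was the most variable window of GNAS-AS1. In the intronic window chr20:58868001-58869000 the level was 53.4% in the vehicle control and 39.3% after propyl gallate, a called difference, against 50.6% to 53.8% in the other libraries. The shelf window chr20:58896001-58897000 read 52.7% after etoposide and 79.6% to 94.9% in the other libraries, from 70 to 137 calls, a difference of -31.2 percentage points after etoposide (-42.9 to -17.7, Fisher's exact test, adjusted p 0.000161).

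Partly methylated windows reach such differences more often than others, so the members were also read against windows of their own kind. Of the 26 island windows, 13 had a mean level from 30% to 70% over the 5 libraries, 2 at NNAT, 2 at L3MBTL1 and 9 at GNAS. This class uses the chemical libraries too. The NNAT window from 37521001 (25.5% in the vehicle control) and the GNAS window from 58889001 (29.5%) are in it only because the chemical libraries were higher on average, which tilts the counts and means over the 13 upward. After etoposide 3 of the 13 were called, all higher, against 10.3% of the 2884 such island windows in the table (5.20% higher and 5.06% lower). After propyl gallate 5 of 13 were called, 2 higher and 3 lower, against 10.2% (5.17% higher and 5.03% lower). After theophylline 1 of 13 was called, lower, against 10.7% (6.31% higher and 4.40% lower), and after 5-aza-dc 2 of 13, 1 higher and 1 lower, against 17.6% (2.46% higher and 15.2% lower). With the class set by the vehicle control alone, an alternative added after seeing the data, 11 windows remain, of which 2 were called after etoposide, both higher, and 3 with propyl gallate, 1 with theophylline and 1 with 5-aza-dc, all lower. The shares called among the 2966 island windows of that class in the table were 10.3%, 10.1%, 10.7% and 18.0%. Both higher calls of propyl gallate and the higher call of 5-aza-dc thus lie in the pair of windows under 30% in the vehicle control. Leaving that pair out lowers the higher calls and the means of both chemicals, so the class set by the vehicle control is tilted as well. The median range over the 5 libraries was 13.9 percentage points in the 13 windows and 11 in the 2884.

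The mean level of the 13 windows was 48.7% in the vehicle control, 56.0% with etoposide, 46.1% with propyl gallate, 46.4% with theophylline and 46.0% with 5-aza-dc. The etoposide library exceeded the vehicle control by 7.25 percentage points (6.23 to 8.27 by counting error), with 11 windows higher and 2 lower. It was the highest library in 7 of the 13 windows and the lowest in none. With the class set by the vehicle control alone it was 6.63 (5.47 to 7.79), with 9 of 11 windows higher. The same difference over the 2884 partly methylated island windows of the table was 0.124, with 1474 windows higher and 1409 lower. In the same class at other imprinted genes it was 6.36 on chromosomes 6 and 7 (higher in 6 of 7 windows), 3.63 at 11p15 (5 of 6), 2.53 at 14q32 (2 of 4) and -2.20 at 15q11 (1 of 4). A difference near that of the 7 genes was thus also seen on chromosomes 6 and 7, and the differences between these groups were not tested. By locus it was 11.9 at NNAT (9.65 to 14.2), 7.76 at L3MBTL1 (5.26 to 10.3) and 6.10 at GNAS (4.83 to 7.37). With 1 library, a difference of this culture or its library preparation cannot be told apart from one of the chemical.

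Over the 13 windows the difference was -2.58 percentage points for propyl gallate (-3.66 to -1.5) and -2.34 for theophylline (-3.37 to -1.31). Without the GNAS window from 58888001, a choice made after seeing the data, these became -0.260 for propyl gallate and 0.0432 for theophylline. The value for propyl gallate also holds the pair of windows under 30% in the vehicle control, which were 12.8 and 11.5 higher. With the class set by the vehicle control alone, which leaves that pair out, the difference was -5.25 (-6.48 to -4.03) for propyl gallate. For theophylline it was then -2.86 (-4.03 to -1.68). Leaving the pair out tilts that class downward for propyl gallate, so neither value for propyl gallate is free of selection. Leaving out the GNAS window from 58888001 was not tried in that class. For 5-aza-dc the difference over the 13 windows was -2.74 (-3.78 to -1.70), or -1.23 without that GNAS window, against -3.78 over all 2884 such windows of the table. With the class set by the vehicle control alone, which leaves out that pair (15.6 and 8.29 higher after 5-aza-dc), it was -5.41 (-6.58 to -4.23), against -3.42. Within the 13 windows it was -6.80 at L3MBTL1 and -4.08 at GNAS. At NNAT the 2 windows differed by -0.839 and 15.6, the second being the one under 30% in the vehicle control. Over all 73 windows the mean was 69.5% in the vehicle control and 71.9% with etoposide, 69.6% with propyl gallate, 70.1% with theophylline and 69.1% with 5-aza-dc, and the counting interval excludes 0 for etoposide alone (2.42 percentage points, 1.68 to 3.15). Over all windows of the table the mean differences were 0.513 for etoposide, 0.566 with propyl gallate, 0.975 for theophylline and -1.03 with 5-aza-dc.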

How the data were processed

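Genomic DNA of 5 cultures, 1 per condition, was profiled by RRBS. Per the labels and the study's methods, the authors trimmed the reads with Trim Galore 0.5.0, aligned them with Bismark 0.20.0 to hg38, used methylKit 1.10.0 to add up the CpG calls of each 1000-base window, scaled coverage between libraries, filtered on low and very high coverage and kept windows present in all of them. The deposited counts of the vehicle control are unscaled calls, and those of the other libraries are a score, calls that the authors multiplied by 1.18 (etoposide), 1.09 (propyl gallate), 1.15 (theophylline) or 1.21 (5-aza-dc) and rounded. The methylation level is the β-value, a fraction the authors deposited for each window, printed here as a percentage. The single-library tables hold the same values.

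Calls before scaling were recovered from the whole numbers that each factor skips. For at least 99.99% of windows, scaling them again gave back the deposited coverage. They were used for Wilson and Newcombe intervals, for counting intervals of means (normal approximation) and for two-sided Fisher's exact tests, adjusted by Benjamini-Hochberg over all 288391 windows. The test was planned on calls before scaling and was checked on simulated data. The simulated calls were independent, so that check covers the computation and not the dependence between calls of 1 read or its duplicates. Gene positions in the table lay within 1000 bases of RefSeq GRCh38.p14 for 97.4% of 32874 genes matched by symbol. Named windows were all island windows, all called windows and the most variable window of each gene. The genes and lists were chosen with earlier results of these data known. Other imprinted genes and neighbours were fixed lists, of which MEG8, MEST, PEG3-AS1, MIR296 and MIR298 were not analysed here. Python 3.11.15, numpy 2.4.6, pandas 2.3.3, scipy 1.17.1 and numba 0.67.0 were used.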

Additional observations from a re-analysis of the deposited data

How the results depend on the processing

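The number of member windows called was 6 for each chemical. Requiring 25 percentage points left 1 for each of etoposide, propyl gallate and theophylline, and 0 for 5-aza-dc. At any size of difference, 18 of the 73 windows passed the adjusted threshold of Fisher's exact test for etoposide and 13 of 73 with propyl gallate. The count was 18 of 73 for theophylline and 16 of 73 with 5-aza-dc. Of all windows, 10.2%, 10.3%, 11% and 14% passed in the same order. For 5-aza-dc, 27 of 73 had an unadjusted p under 0.05 in Fisher's exact test, against 33.8% of all windows. Requiring 5 percentage points gave 17 for etoposide, 10 with propyl gallate, 13 for theophylline and 14 with 5-aza-dc. With calls divided by 2 the counts were 2 after etoposide, 3 after propyl gallate and 2 after theophylline. The share over all windows was not computed at these settings, so these counts have no background. With windows assigned by gene symbol alone, the counts were 2, 3, 3 and 4 for the same chemicals in that order. Fewer windows enter at this setting, so these counts are not comparable with 6 of 73. The deposited calls, at least 30 calls and a margin of 0 bases kept every count within 1.5 times of 6.

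Over the 13 partly methylated island windows, the difference of etoposide in percentage points was 6.07 with a class from 20% to 80%, 4.72 with all calls pooled and 9.16 against the mean of the other 4 libraries. That of propyl gallate was -0.931 pooled, -0.260 without the most variable window and -5.25 with the class set by the vehicle control alone. That of theophylline was -1.02 pooled and changed sign to 0.0432 without that window. That of 5-aza-dc was -1.55 with the wider class, -1.65 pooled, -1.23 without that window and -5.41 with the class set by the vehicle control alone. Leaving out that window and setting the class by the vehicle control were chosen after seeing the data. Over all 73 windows, that of propyl gallate was -1.68 pooled, 0.876 as a median and 0.896 by gene symbol, and that of 5-aza-dc was -4.04 pooled, -1.15 against the other libraries and 1.22 by gene symbol. The cause was not tested. Of the alternative values, 57 stayed within the counting interval or 1.5 times. No paired analysis was possible because the labels carry no replicate numbers and each condition has 1 library. Depth limits single windows most, since 15 of the 73 have under 100 calls in at least 1 library.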
